A study of Homo sapiens with 15 samples.

Results

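TP63 encodes p63, the transcription factor that keeps the basal cells of squamous epithelium in their proliferating state, and 7 further genes encode ubiquitin ligases: ITCH, WWP1, NEDD4, NEDD4L, FBXW7, FBXO30, and STUB1. Some of these ligases, such as ITCH and FBXW7, are reported to act on p63 protein, while FBXO30 had no established link to it. The study named ITCH and FBXO30 for significant changes after PRMT5 and WDR77 silencing in its own RNA-seq data, the source of these libraries. Their changes here are therefore not an independent test. These 8 genes were taken by symbol from the 60649 genes listed in each of 15 count tables and each symbol was listed 1 time per table. HSC-5 is an established cell line from a squamous cell carcinoma of human skin, and the RNA-seq libraries compared it after loss of PRMT5 or WDR77, an enzyme that methylates arginine and its obligate partner. The control group, sgNeg, had a WT genotype in the labels, and the study describes sgNeg in HSC-5 cells as an empty vector. PRMT5 knockout cells carried 1 of 2 guides (sgPRMT5-1 or sgPRMT5-2), WDR77 knockout cells carried sgWDR77-1 or sgWDR77-2 by their labels, and all 5 groups, the control included, had the treatment Neomycin. The guide sites lay in sequence for the methyltransferase domain (PRMT5) and for WD repeat 1 (WDR77), by the study's description. All groups were labelled as the same cell line, and whether they were started from 1 culture is not given. Each group had 3 biological replicates, with 5146711 to 6730428 reads on genes per library. The labels call them biological replicates without saying how the cultures were separated, so p-values and intervals cover the spread between these libraries.

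Ubiquitin ligases attach ubiquitin to chosen proteins, which often marks them for the proteasome. ITCH, WWP1, NEDD4, and NEDD4L belong to the NEDD4 family of HECT ligases, which pass ubiquitin through a catalytic cysteine and recognise PY motifs with WW domains. FBXW7 and FBXO30 are F-box proteins, the subunits that bring substrates to SCF complexes built on CUL1. STUB1, also named CHIP, works with the HSP70 and HSP90 chaperones. The counts measured RNA of these genes and not the amount or activity of any protein. In such bulk libraries, fewer cells expressing a gene and less RNA per cell cannot be told apart.

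The targeted genes followed their labels. PRMT5 was at 59.1, 49.6, and 67.8 counts per 1000000 reads (CPM, with library totals scaled by TMM factors) in the sgNeg replicates 1 to 3, at 33, 35.8, and 41.4 with sgPRMT5-1, and at 44.2, 44.5, and 39.4 with sgPRMT5-2. WDR77 was at 125, 114, and 119 CPM in sgNeg, at 30.8, 52, and 53.3 with sgWDR77-1, and at 26.6, 24.9, and 22 with sgWDR77-2. Every library of a knockout group was below every sgNeg library for its own target. The fold of sgNeg was 0.62 with sgPRMT5-1 and 0.73 with sgPRMT5-2 for PRMT5 (adjusted p = 0.00525 and 0.00257, limma voom). For WDR77 it was 0.378 with sgWDR77-1 and 0.204 with sgWDR77-2 (adjusted p = 0.00141 and 1.78e-08, limma voom). Within sgWDR77-1, replicate 1 had the lowest WDR77 level.

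That replicate also stood apart over all genes. Log2 CPM values of sgWDR77-1 replicate 1 correlated at 0.971 and 0.961 with those of replicates 2 and 3, while the other replicate pairs of the series reached 0.98 to 0.995. The pairs of sgPRMT5-2 were the closest of any group, at 0.994 to 0.995, against 0.985 to 0.989 in sgNeg. How far this closeness adds to the number of genes called with that guide was not tested. Replicates 2 and 3 of sgWDR77-1 and replicate 2 of sgNeg had 6.04%, 5.7%, and 7.16% of their alignments outside annotated genes, against 2.75% to 4.26% in the other libraries. Their part in the results below was not tested, apart from leaving out each library in turn. Markers of squamous epithelium (KRT5, KRT14, KRT6A, KRT17, TP63, SFN, and DSG3) summed to 2220 to 2700 CPM in sgNeg, 2140 to 2380 with sgPRMT5-1, 1800 to 1890 with sgPRMT5-2, 1750 to 1890 with sgWDR77-1, and 2540 to 2600 with sgWDR77-2, with KRT17 the most abundant at 690 to 1450 CPM. KRT14, a defining basal keratin, had at most 4 counts in any library. The 4 immune markers summed to at most 0.555 CPM, with CD3E at 0. The 5 fibroblast markers summed to 6.68 to 15.5 CPM with COL1A2 at 0, the 3 melanocyte markers to 2.55 to 7.48 CPM with TYR at 0, and the 3 endothelial markers, nearly all CDH5, to 31.3 to 36.1 CPM with sgWDR77-1, 16.6 to 24.9 in sgNeg, and 12.7 to 21.4 in the other groups. With sgPRMT5-2, where 40.1% of all tested genes were called by limma voom (adjusted p below 0.05), 1 of 2 endothelial, 1 of 2 melanocyte, and the only tested fibroblast marker were called lower. With sgWDR77-1, where 2.71% were called, 1 of 2 endothelial markers was called higher. Of the squamous markers, 3 lower and 1 higher of 7 tested were called with sgPRMT5-1 (3.76% of all tested genes), 3 lower and 1 higher of 6 with sgPRMT5-2, 3 lower and 0 higher of 6 with sgWDR77-1, and 3 lower and 2 higher of 7 with sgWDR77-2 (4.97% of all tested genes) by limma voom.

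In unedited cells TP63 was by far the most abundant of the 8 transcripts. Scaled by the length of the MANE Select transcript, the sgNeg level was 70.2 ± 1.68 CPM per kb for TP63 (SD, n = 3) and 26.7 ± 0.873 for ITCH (SD, n = 3), the first of the ligases. WWP1 followed at 18.2 ± 0.966, STUB1 at 11.9 ± 1.36, and NEDD4 at 10.8 ± 0.054 CPM per kb (SD, n = 3). FBXO30 (5.65 ± 0.168), FBXW7 (5.02 ± 0.273), and NEDD4L (4.09 ± 0.147 CPM per kb, SD, n = 3) were the lowest of the 8. STUB1 and NEDD4 differed by less than the SD of STUB1, while every other pair of neighbours in this order differed by more than the larger SD. Of the other NEDD4 family ligases, WWP2 (17.1), SMURF1 (10.9), and SMURF2 (8.61 CPM per kb) lay in the same range, and HECW1 and HECW2 were at 0.119 and 0.0232 CPM per kb. The length of TP63 is that of the annotated full-length transcript, so a shorter isoform would have a higher level per kb than given here.

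**Figure D1:**
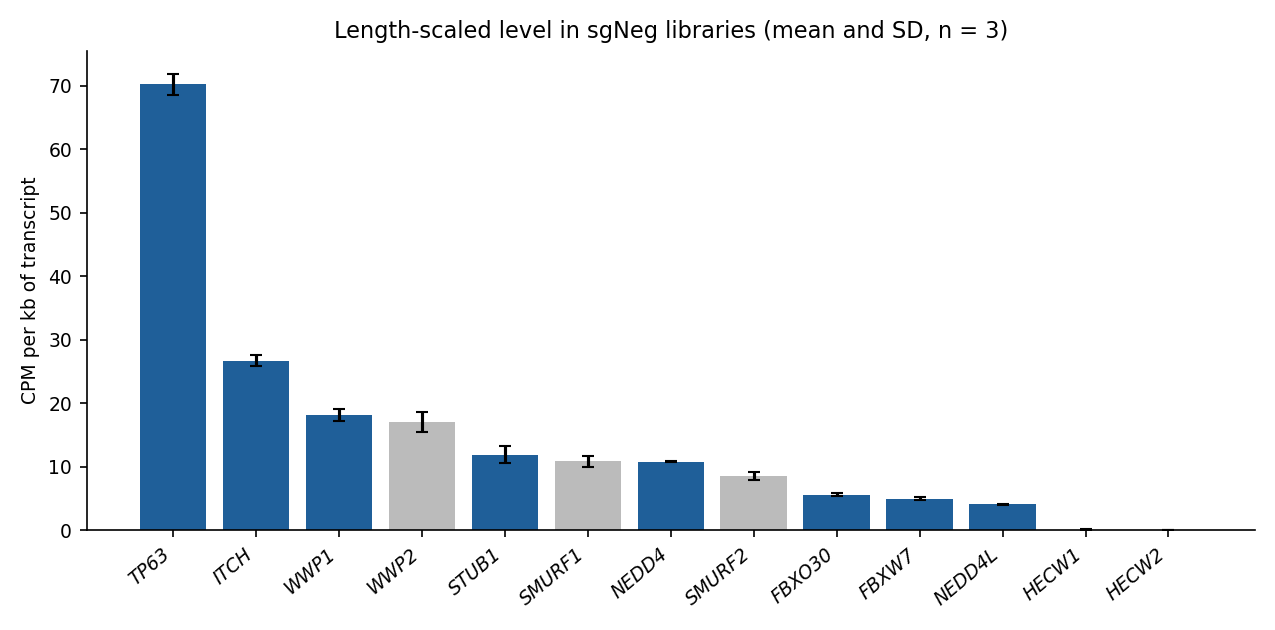
The bars show the mean level in CPM per kb of MANE Select transcript in the 3 sgNeg libraries, with the SD as error bars, for the 8 genes (blue) and other NEDD4 family ligases (grey). TP63 stands at 70.2 CPM per kb, ITCH at 26.7, and NEDD4L at 4.09.

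TP63 (ENSG00000073282.14, chromosome 3, 189631389 to 189897276, plus strand, hg38) had 1735 to 2859 counts per library. It was at 339, 348, and 355 CPM in sgNeg, at 414, 434, and 326 with sgPRMT5-1, and at 345, 311, and 335 with sgPRMT5-2. With sgWDR77-1 it was at 528, 385, and 386 CPM, and with sgWDR77-2 at 334, 369, and 405. The sgWDR77-1 libraries lay above all sgNeg libraries, and the other 3 knockout groups overlapped with them. From lowest to highest mean, the groups ran from sgPRMT5-2 and sgNeg through sgWDR77-2 to sgPRMT5-1 and sgWDR77-1, and each step (16.7 to 41.8 CPM) was smaller than the larger SD of its pair (17.7 to 82.3 CPM). The log2 fold change against sgNeg was 0.15 with sgPRMT5-1 (95% interval -0.05 to 0.34), -0.08 with sgPRMT5-2 (-0.21 to 0.06), 0.33 with sgWDR77-1 (0.04 to 0.63), and 0.08 with sgWDR77-2 (-0.10 to 0.26). None passed the adjusted threshold of 0.05 (adjusted p = 0.404, 0.35, 0.222, and 0.65, limma voom). The lowest bound among these intervals was -0.21, a fold of 0.863. With 1 library left out at a time, these values ran from 0.07 to 0.26, -0.09 to -0.02, 0.16 to 0.42, and 0.03 to 0.16 in the same order, and none was called. The 0.07 and 0.26 came without sgPRMT5-1 replicates 2 and 3, and the 0.16 with sgWDR77-1 came without its replicate 1. With library totals alone in place of TMM factors the sgPRMT5-2 value was -0.16 with an adjusted p of 0.0364 by limma voom. That scaling moved the median log2 fold change of all tested genes by -0.084 in this comparison.

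**Figure D2:**
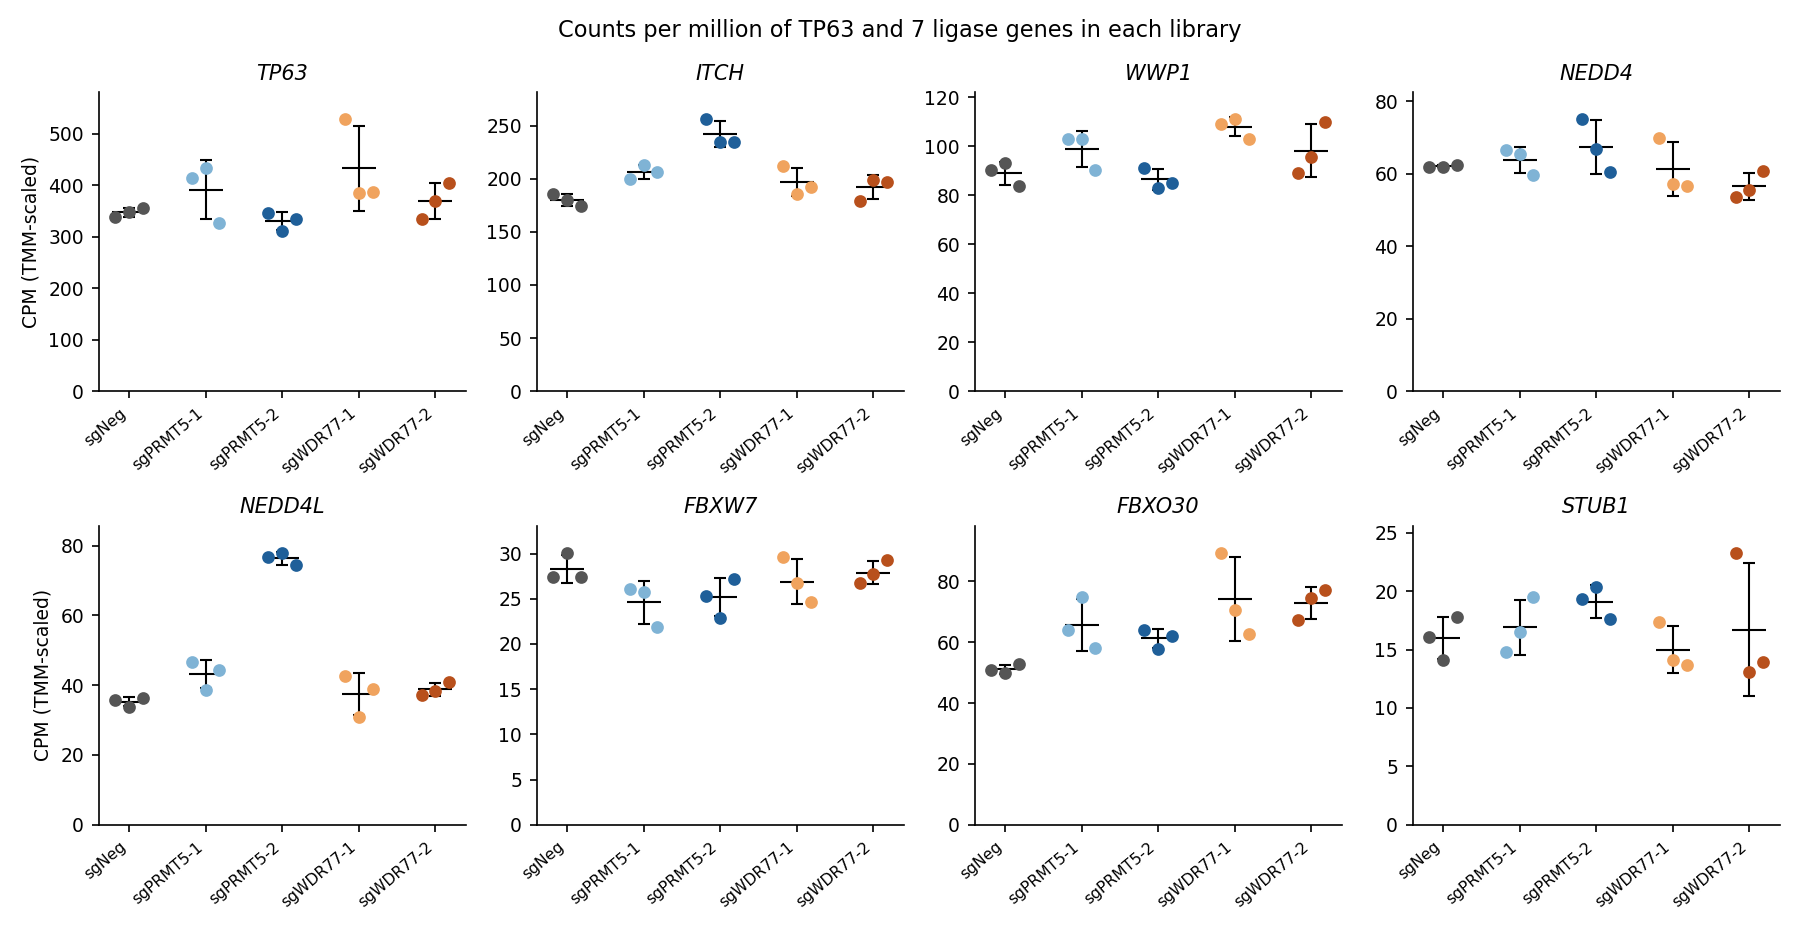
Each point is the TMM-scaled CPM of 1 library, coloured by group, with the group mean and SD in black (n = 3). NEDD4L in sgPRMT5-2 (74.4 to 78 CPM) lies far above the other 12 libraries, FBXO30 is above sgNeg in all 12 knockout libraries, and TP63 shows 1 high library, sgWDR77-1 replicate 1 at 528 CPM.

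Among the HECT ligases, NEDD4L and ITCH rose with sgPRMT5-2, and no member of this family passed the test against sgNeg with the other 3 guides. NEDD4L (ENSG00000049759.20, chromosome 18, 58044226 to 58401540, plus strand), known best for its control of sodium channels and TGF-beta signalling, had 167 to 494 counts per library. Its level was 35.7, 33.9, and 36.3 CPM in sgNeg and 76.8, 78, and 74.4 CPM with sgPRMT5-2. It was 46.6, 38.7, and 44.3 CPM with sgPRMT5-1, 42.7, 30.9, and 39 with sgWDR77-1, and 37.2, 38.3, and 40.9 with sgWDR77-2. The sgPRMT5-2 libraries were above all 12 others, and the sgPRMT5-1 and sgWDR77-2 libraries were above all sgNeg libraries by a smaller margin. NEDD4L rose 2.15-fold with sgPRMT5-2 (log2 fold change 1.11, 95% interval 0.92 to 1.30, adjusted p = 1.24e-08, limma voom), the largest change of any of the 8 genes in the 4 comparisons with sgNeg. In that comparison 9.94% of all tested genes had a change as large in either direction. The log2 fold change was 0.28 with sgPRMT5-1 (0.03 to 0.52), 0.11 with sgWDR77-1 (-0.22 to 0.43), and 0.13 with sgWDR77-2 (-0.11 to 0.37), and none of these passed (adjusted p = 0.207, 0.755, and 0.554, limma voom).

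ITCH (ENSG00000078747.16, chromosome 20, 34363235 to 34511773, plus strand), the ligase for which the itchy mouse is named, had 929 to 1649 counts per library. It was at 186, 180, and 174 CPM in sgNeg, at 200, 213, and 206 with sgPRMT5-1, and at 256, 235, and 235 with sgPRMT5-2. Both PRMT5 groups lay above every sgNeg library, and the sgPRMT5-2 libraries lay above every other library of the series. With sgWDR77-1 the values were 212, 186, and 192 CPM and with sgWDR77-2 they were 179, 199, and 197, overlapping with sgNeg in both. By mean the groups ran from sgNeg through sgWDR77-2, sgWDR77-1, and sgPRMT5-1 to sgPRMT5-2, where the first step (11.7 CPM) and the last (35.8 CPM) were larger than the larger SD and the others were not. Against sgNeg the 95% interval of the log2 fold change was 0.28 to 0.56 with sgPRMT5-2, 0.01 to 0.35 with sgPRMT5-1, -0.08 to 0.39 with sgWDR77-1, and -0.10 to 0.26 with sgWDR77-2. Of these, sgPRMT5-2 passed (fold 1.34, adjusted p = 6.01e-05, limma voom). In that comparison 40% of all tested genes had a change as large in either direction. Part of the ITCH exons, 23.9% of their length, was shared with other annotated genes on the same strand, of which ITCH-IT1 was listed in the count tables and a readthrough gene was not.

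WWP1 and NEDD4, the other HECT members, did not pass in any comparison with sgNeg. WWP1 (ENSG00000123124.14, chromosome 8, 86342547 to 86478420, plus strand) ranged from 83 to 111 CPM over the 15 libraries, with group means of 86.4 ± 4.22 in sgPRMT5-2, 89 ± 4.71 in sgNeg, 98.2 ± 10.8 in sgWDR77-2, 98.9 ± 7.46 in sgPRMT5-1, and 108 ± 3.71 in sgWDR77-1 (SD, n = 3). All sgWDR77-1 libraries were above all sgNeg libraries, with a log2 fold change of 0.30 (95% interval 0.06 to 0.55, adjusted p = 0.174, limma voom). NEDD4 (ENSG00000069869.17, chromosome 15, 55826922 to 55993660, minus strand), the founding member of the family, had group means from 56.6 ± 3.67 CPM in sgWDR77-2 to 67.4 ± 7.36 in sgPRMT5-2 (SD, n = 3), and no step between neighbouring groups was larger than the larger SD. All sgWDR77-2 libraries were below all sgNeg libraries for NEDD4. Its log2 fold changes against sgNeg ran from -0.14 to 0.11.

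Of the F-box genes, FBXO30 passed the test with 2 guides and FBXW7 with none. FBXO30 (ENSG00000118496.5, chromosome 6, 145793502 to 145814795, minus strand), also named MUSA1 for its role in muscle atrophy, was at 50.8, 49.8, and 52.8 CPM in sgNeg. It was at 63.9, 75, and 58 CPM with sgPRMT5-1, at 64, 57.8, and 61.9 with sgPRMT5-2, at 89.4, 70.5, and 62.8 with sgWDR77-1, and at 67.2, 74.4, and 77.2 with sgWDR77-2. All 12 knockout libraries were above all 3 sgNeg libraries, and each knockout group overlapped with its neighbour in the order of their means, with steps of 1.3 to 7.29 CPM against SDs of 8.63 to 13.7. The log2 fold change was positive with each guide, and its 95% interval lay above 0 with each: 0.10 to 0.57 with sgPRMT5-1, 0.07 to 0.44 with sgPRMT5-2, 0.24 to 0.86 with sgWDR77-1, and 0.29 to 0.72 with sgWDR77-2. The 4 comparisons shared the same 3 control libraries, which were close together for this gene (SD 1.52 CPM). The share of all genes that lie apart from sgNeg in all 12 knockout libraries is not given here. After adjustment over all genes, sgPRMT5-1 did not pass (adjusted p = 0.102, limma voom), and the rise passed with sgWDR77-2 (fold 1.42, adjusted p = 0.00887) and sgPRMT5-2 (fold 1.19, adjusted p = 0.0251) by limma voom. Without sgPRMT5-2 replicate 1 the latter call was lost (log2 fold change 0.25, adjusted p = 0.0616, limma voom), as it was with library totals alone (0.17, adjusted p = 0.107), with no low-count filter (0.26, adjusted p = 0.0722), and with 1 fit over all 15 libraries (0.26, adjusted p = 0.118). Library totals alone moved the median log2 fold change of all tested genes by -0.084 with sgPRMT5-2. A change as large as that of FBXO30, in either direction, was found in 59.9% of all tested genes with sgPRMT5-2 and in 16.6% with sgWDR77-2. For sgWDR77-1 (fold 1.47, adjusted p = 0.0671) the threshold was passed without replicate 1 (0.39, adjusted p = 0.0384), without replicate 3 (0.66, adjusted p = 0.0329), and in 1 fit over all 15 libraries (0.52, adjusted p = 0.0103) by limma voom. For sgPRMT5-1 it was passed only with the replicate number as a block (0.34, adjusted p = 0.024, limma voom).

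FBXW7 (ENSG00000109670.16, chromosome 4, 152320544 to 152536092, minus strand), a tumour suppressor that marks MYC and cyclin E for degradation, was the only member with a negative estimate in all 4 comparisons with sgNeg, although with the WDR77 guides the sign turned when single libraries were left out (up to 0.02 with sgWDR77-1 and 0.03 with sgWDR77-2). It was at 27.4, 30.1, and 27.4 CPM in sgNeg, at 26.1, 25.8, and 21.9 with sgPRMT5-1, at 25.3, 22.9, and 27.2 with sgPRMT5-2, at 29.6, 26.7, and 24.6 with sgWDR77-1, and at 26.8, 27.7, and 29.3 with sgWDR77-2. The libraries of both PRMT5 guides were below all sgNeg libraries, and those of the WDR77 guides overlapped with them. The log2 fold changes were -0.22 (95% interval -0.49 to 0.06) with sgPRMT5-1, -0.18 (-0.42 to 0.06) with sgPRMT5-2, -0.04 (-0.36 to 0.27) with sgWDR77-1, and -0.02 (-0.29 to 0.24) with sgWDR77-2, and none passed (adjusted p = 0.389, 0.229, 0.906, and 0.938, limma voom). With 1 library left out the PRMT5 guide values ran from -0.27 to -0.15 and from -0.21 to -0.10, the last without sgPRMT5-2 replicate 2. With 128 to 183 counts per library, a loss of up to 0.711-fold with sgPRMT5-1 lay within its interval.

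STUB1 (ENSG00000103266.11, chromosome 16, 680224 to 682870, plus strand) had the fewest counts of the 8 genes, 74 to 124 per library. Its values ran from 13.1 to 23.3 CPM, with both ends in sgWDR77-2, and its group means from 15 ± 2.02 in sgWDR77-1 to 19.1 ± 1.41 in sgPRMT5-2 (SD, n = 3). The log2 fold change with sgPRMT5-2 was 0.26 (95% interval -0.04 to 0.55, adjusted p = 0.156, limma voom), or 0.16 to 0.33 with 1 library left out (0.16 without sgNeg replicate 2), and the other 3 lay between -0.06 and 0.06. These values are uncertain because 42.5% of the STUB1 exon length was shared with JMJD8 on the opposite strand, which had 32 to 82 counts, and the sources used here do not say whether the counting used strand.

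The promoters of ITCH, FBXO30, and NEDD4L are shown because these 3 of the 8 genes passed the test with sgPRMT5-2, where 40.1% of all tested genes did. Of the 8 genes, 6 had a start in the RefSeq promoter table (GRCh38.p14). Each stretch runs from 250 to 39 bases before the start, 5′ to 3′ on the strand of the gene, and capitals mark matches to GGGCGG, known as the GC box, on either strand. The ITCH stretch is chr20:34363023-34363234 on the plus strand, the FBXO30 stretch is chr6:145814834-145815045 on the minus strand, and the NEDD4L stretch is chr18:58149070-58149281 on the plus strand. NEDD4L has 5 starts in the table, and the stretch shown is the one that holds none of its annotated exons. That stretch lies inside the annotated gene, which begins at 58044226, and was picked by exon overlap rather than as the main start. Its motif matches and GC content therefore describe an internal start. Gene counts do not show which start was used.
ITCH: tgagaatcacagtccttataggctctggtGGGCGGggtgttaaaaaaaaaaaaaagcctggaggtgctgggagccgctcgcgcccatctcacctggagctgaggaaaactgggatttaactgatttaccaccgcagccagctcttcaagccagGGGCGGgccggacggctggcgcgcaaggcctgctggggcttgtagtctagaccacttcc
FBXO30: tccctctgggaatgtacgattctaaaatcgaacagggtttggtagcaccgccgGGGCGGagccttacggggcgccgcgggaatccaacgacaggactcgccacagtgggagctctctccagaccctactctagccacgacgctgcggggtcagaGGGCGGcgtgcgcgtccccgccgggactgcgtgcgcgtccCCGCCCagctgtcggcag
NEDD4L: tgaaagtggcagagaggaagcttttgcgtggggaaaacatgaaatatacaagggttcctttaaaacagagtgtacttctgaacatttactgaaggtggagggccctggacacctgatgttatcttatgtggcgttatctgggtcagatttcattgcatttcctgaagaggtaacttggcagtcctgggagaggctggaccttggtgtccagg
ITCH had 2 matches to GGGCGG, FBXO30 had 3, and NEDD4L had 0, while 37.7% of all 35116 promoter stretches of this length held at least 1. The CCAAT box (letters CCAAT), found in 29% of promoters on either strand, had no match in the 3 stretches. The TATA box, searched as TATAAA on both strands and present in 7.91% of promoters, had none. The E-box, searched as CACGTG and present in 5.15% of promoters, had none either. The GC content was 57.5% for ITCH, 67.5% for FBXO30, and 46.7% for NEDD4L.

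The number of members called was read against the share of all tested genes called with the same guide. With sgPRMT5-2, 3 of the 8 genes were called (NEDD4L, ITCH, and FBXO30), all higher, where 40.1% of 14184 tested genes were called, 20.9% higher and 19.3% lower. With sgWDR77-2, FBXO30 was called, where 4.97% of 14038 genes were, 1.89% higher and 3.08% lower. With sgPRMT5-1 and sgWDR77-1, none of the 8 was called by limma voom or by limma-trend, where 3.76% of 14102 and 2.71% of 14202 genes were. At an unadjusted p below 0.05 these counts were 3 with sgPRMT5-1 (ITCH, NEDD4L, and FBXO30) and 3 with sgWDR77-1 (TP63, WWP1, and FBXO30), beside 19.3% and 17.7% of all tested genes. With sgWDR77-2 this share was 20.8% of all tested genes, and these 3 shares also stand beside the unadjusted counts of the lists below. All 8 genes passed the filter on low counts in every comparison. With the 2 guides to PRMT5 and then the 2 guides to WDR77, each in order of number, their median log2 fold change was 0.14, 0.18, 0.13, and 0.08, beside 0.004, 0.001, 0.024, and 0.008 for all tested genes. Their median absolute change was 0.16, 0.22, 0.13, and 0.11, below the 0.18, 0.33, 0.22, and 0.19 of all tested genes in each comparison.

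**Figure D3:**
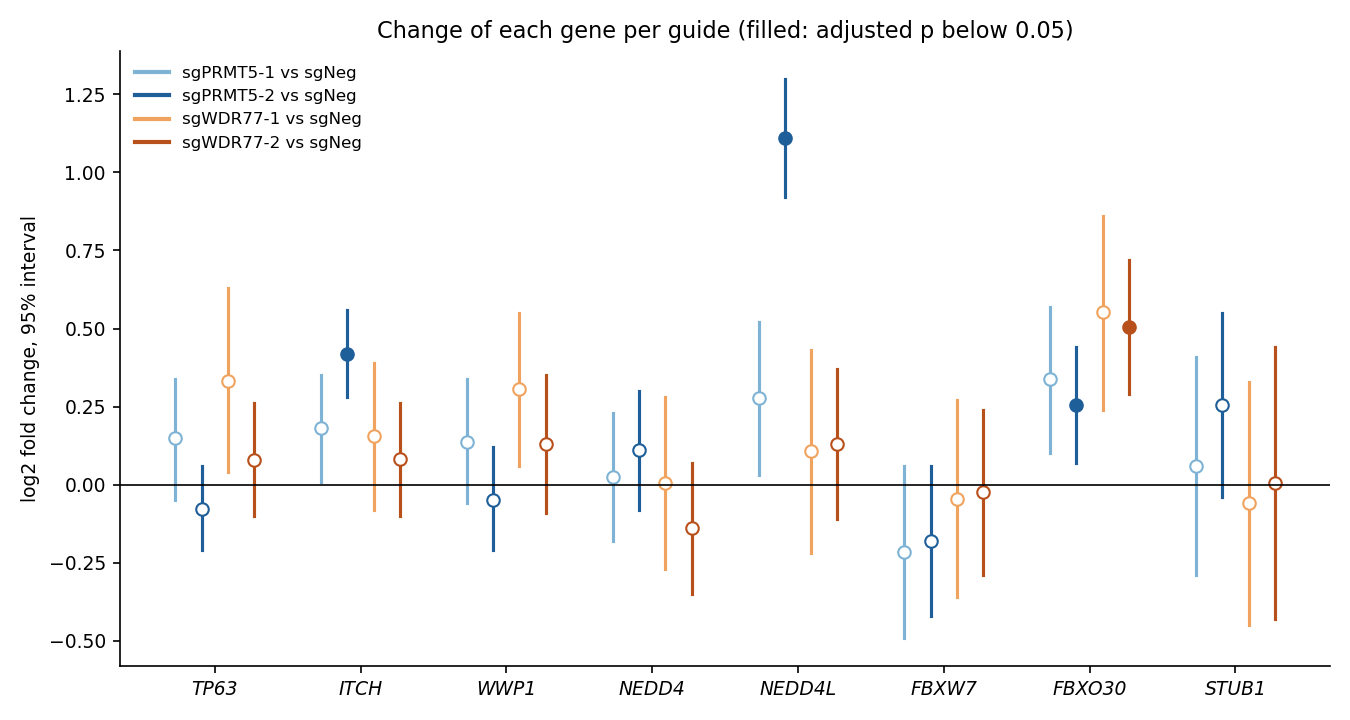
Points give the log2 fold change of each gene for each guide against sgNeg, with the 95% interval of limma voom as a line, and filled points have an adjusted p below 0.05. The filled points are NEDD4L, ITCH, and FBXO30 with sgPRMT5-2 and FBXO30 with sgWDR77-2, and the FBXO30 intervals lie above 0 for all 4 guides.

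The guides to PRMT5 differed from each other in these genes when compared directly. NEDD4L was 1.77-fold higher with sgPRMT5-2 than with sgPRMT5-1 (log2 fold change 0.83, 95% interval 0.64 to 1.02, adjusted p = 2.2e-06, limma voom), and ITCH was 1.18-fold higher (0.24, 0.10 to 0.37, adjusted p = 0.0144). TP63 was 0.853-fold, a log2 fold change of -0.23 (-0.40 to -0.06, adjusted p = 0.0495, limma voom), with overlapping libraries. These 3 of 8 calls, 2 higher and 1 lower, stood beside 19.2% of 13976 genes called, 9.94% higher and 9.31% lower. The TP63 call was lost without sgPRMT5-1 replicate 1 (-0.19, adjusted p = 0.195) or replicate 2 (-0.15, adjusted p = 0.255), and without sgPRMT5-2 replicate 1 (-0.26, adjusted p = 0.101), replicate 2 (-0.20, adjusted p = 0.182), or replicate 3 (-0.25, adjusted p = 0.101, limma voom), and also with upper quartile factors (-0.23, adjusted p = 0.0523) and in 1 fit over all 15 libraries (-0.23, adjusted p = 0.227). Without sgPRMT5-1 replicate 3 it was -0.35 (adjusted p = 3.97e-08, limma voom). The ITCH call was lost without sgPRMT5-1 replicate 1 (0.20, adjusted p = 0.0803) and without sgPRMT5-2 replicate 1 (0.20, adjusted p = 0.105) or replicate 2 (0.25, adjusted p = 0.0556, limma voom), and in 1 fit over all 15 libraries (0.23, adjusted p = 0.0916). WWP1, at -0.19 (adjusted p = 0.114), passed without sgPRMT5-1 replicate 3 (-0.25, adjusted p = 0.00445, limma voom). The NEDD4L call held in each of 14 alternative settings.

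Between the WDR77 guides, none of the 8 genes was called by limma voom or by limma-trend, none had an unadjusted p below 0.05, and 0.121% of 14011 genes were called. Their log2 fold changes ran from -0.23 for TP63 to 0.09 for STUB1. WDR77 itself was at 0.55-fold with sgWDR77-2 relative to sgWDR77-1, with no overlap of libraries and an adjusted p of 0.177 by limma voom.

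The comparison of PRMT5KO with WDR77KO, 6 libraries each with both guides pooled, asked whether loss of the enzyme and of its partner affected these genes alike. With the 6 libraries of each knockout taken as replicates, NEDD4L was called, higher in PRMT5KO (log2 fold change 0.59, 95% interval 0.24 to 0.95, adjusted p = 0.0279, limma voom), where 14.0% of 14015 genes were called. That fit takes libraries of 2 guides as replicates of 1 condition, although the PRMT5 guides differed in NEDD4L. With counts summed per guide, 2 guides against 2, a test chosen after seeing the data, NEDD4L was not called (0.59, 95% interval 0.06 to 1.13, adjusted p = 0.331), nor was any other of the 8 genes, and 31 of the same 14015 genes were called by limma voom. In PRMT5KO its lowest, median, and highest libraries were at 38.7, 60.5, and 78 CPM, and in WDR77KO at 30.9, 38.7, and 42.7 CPM, so that 5 of 6 PRMT5KO libraries were above all WDR77KO libraries. The 3 highest PRMT5KO values were those of sgPRMT5-2. Without replicate 1, 2, or 3 of sgPRMT5-2 the adjusted p was 0.0862, 0.0793, and 0.0825 (log2 fold change 0.49, 0.49, and 0.50). Without replicate 2 or 3 of sgWDR77-1 it was 0.0848 and 0.0596 (0.51 and 0.59), and without replicate 2 or 3 of sgWDR77-2 it was 0.0533 and 0.0522 (0.59 and 0.59, limma voom). ITCH was 0.20 higher on the log2 scale (0.04 to 0.36, adjusted p = 0.0764) and passed without sgPRMT5-1 replicate 1 (0.23, adjusted p = 0.0493) or sgWDR77-1 replicate 1 (0.22, adjusted p = 0.0493) and in 1 fit over all 15 libraries (0.20, adjusted p = 0.0143, limma voom). FBXO30 was lower in PRMT5KO by estimate (-0.21, -0.41 to -0.01, adjusted p = 0.135, limma voom), and the remaining 5 genes lay between -0.15 and 0.20. These values, too, are from the fit with 6 libraries each.

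Other ligases of the NEDD4 family were also called higher with sgPRMT5-2. Of 9 HECT ligases of this family, 8 were tested, and 5 were called, all higher, with a median log2 fold change of 0.26 (0.001 over all tested genes), beside 40.1% of all tested genes called, 20.9% higher and 19.3% lower. Besides ITCH and NEDD4L these were SMURF2, SMURF1, and WWP2. SMURF2, a ligase for SMAD proteins and TGF-beta receptors, was at 53.2, 50.3, and 57.7 CPM in sgNeg and at 92, 93, and 89.8 CPM with sgPRMT5-2, with no overlap. Its fold was 1.7 with sgPRMT5-2 (log2 fold change 0.77, standard error 0.0842, adjusted p = 6.7e-07, limma voom), and it was 1.4-fold higher with sgPRMT5-2 than with sgPRMT5-1 (adjusted p = 0.000395, limma voom). WWP2 (0.27, adjusted p = 0.0143) and SMURF1 (0.26, adjusted p = 0.0219) changed less, and with library totals alone neither passed (0.19 and 0.18, adjusted p = 0.0651 and 0.0963, limma voom). SMURF1 also lost its call without sgNeg replicate 1 (0.23, adjusted p = 0.0603) without sgPRMT5-2 replicate 2 (0.25, adjusted p = 0.0624), and with no low-count filter (0.26, adjusted p = 0.0506, limma voom). With sgWDR77-1 and sgWDR77-2 all libraries were below all sgNeg libraries for SMURF1 (-0.29 and -0.27, adjusted p = 0.271 and 0.158). Its level in PRMT5KO was above WDR77KO by 0.44 with 6 libraries each (adjusted p = 0.00499) and by 0.44 with counts summed per guide, where it was not called (adjusted p = 0.285, limma voom). With sgPRMT5-1, sgWDR77-1, and sgWDR77-2, 0 of the 8 tested ligases were called by limma voom, and 3, 3, and 1 had an unadjusted p below 0.05.

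Of the 7 adaptors and activators of these ligases, NDFIP2 was lower in every knockout library than in every sgNeg library. NDFIP2 is a membrane protein with PY motifs that recruits and activates NEDD4 family ligases. It was at 98.2, 97.8, and 94.5 CPM in sgNeg, at 87.2, 86.1, and 68 with sgPRMT5-1, at 65, 59.7, and 63.3 with sgPRMT5-2, at 50.2, 61.8, and 55.5 with sgWDR77-1, and at 49.3, 56.2, and 68 with sgWDR77-2. It fell to 0.644-fold with sgPRMT5-2 (log2 fold change -0.63, adjusted p = 3.18e-06), to 0.587-fold with sgWDR77-1 (-0.77, adjusted p = 0.00627), and to 0.591-fold with sgWDR77-2 (-0.76, adjusted p = 0.00113) by limma voom. With sgPRMT5-1 the value was 0.818-fold (-0.29, adjusted p = 0.128, limma voom). The sgWDR77-1 call was lost without sgNeg replicate 3 (-0.79, adjusted p = 0.0562, limma voom). Each comparison used the same sgNeg libraries, which were close together for NDFIP2 (SD 2.03 CPM). The share of all genes that separate from sgNeg in this way is not given here. TXNIP, an arrestin-like regulator of glucose uptake, fell to 0.648-fold with sgPRMT5-2 (adjusted p = 8.75e-05, limma voom). The other 5 of this list (NDFIP1 and ARRDC1 to ARRDC4) were not called with any guide. The calls were thus 0 of 7 with sgPRMT5-1, 2 with sgPRMT5-2, and 1 with each WDR77 guide, beside 3.76%, 40.1%, 2.71%, and 4.97% of all tested genes in the order of the guides.

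**Figure D4:**
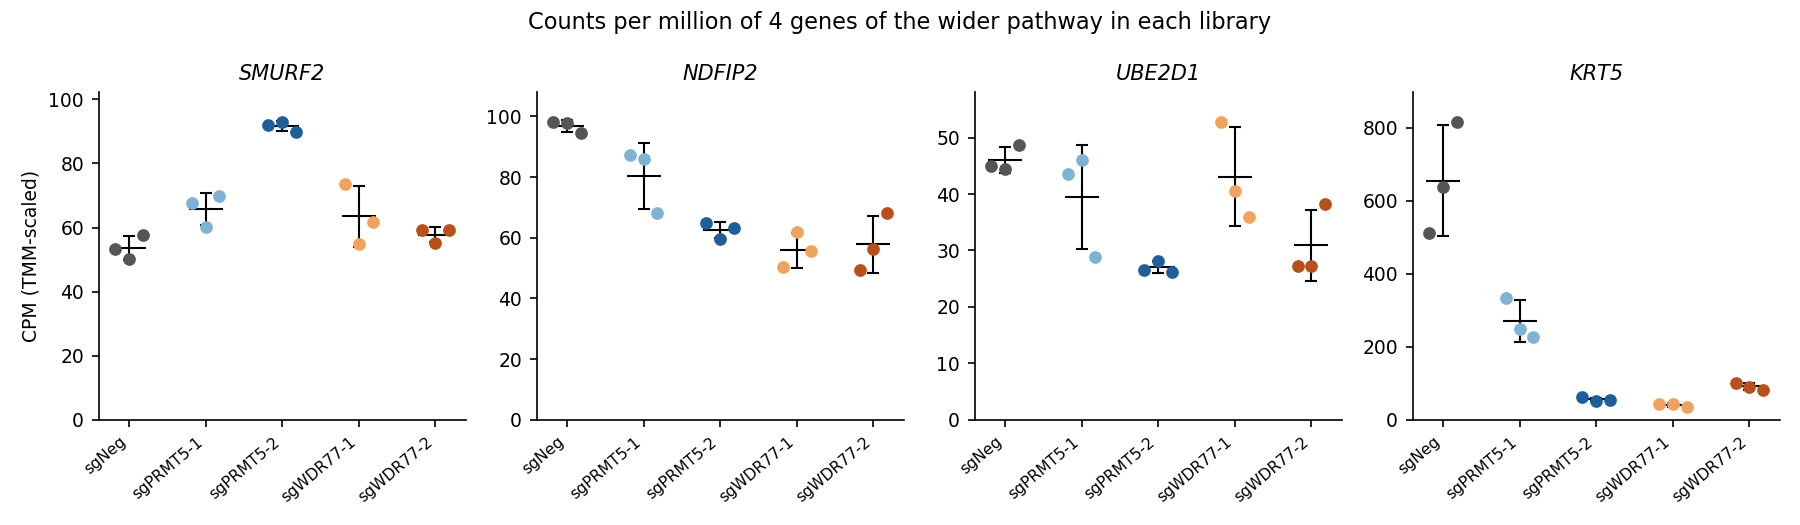
Each point is the TMM-scaled CPM of 1 library for SMURF2, NDFIP2, UBE2D1, and KRT5, with the group mean and SD in black (n = 3). SMURF2 is highest with sgPRMT5-2 (89.8 to 93 CPM), and NDFIP2 and KRT5 are below sgNeg in all 12 knockout libraries.

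Of 9 E1 and E2 enzymes, which feed ubiquitin to these ligases, 3 were called higher and 1 lower with sgPRMT5-2, beside 40.1% of all tested genes called, 20.9% higher and 19.3% lower. Their median log2 fold change was 0.10. UBE2D1, an E2 that serves many ligases, was at 44.9, 44.4, and 48.6 CPM in sgNeg and at 26.6, 28.2, and 26.2 with sgPRMT5-2, with no overlap. It fell to 0.586-fold (adjusted p = 6.48e-06, limma voom), while UBE2D2 of the same family rose 1.28-fold (adjusted p = 0.000547) and UBA1, the main E1, rose 1.27-fold (adjusted p = 0.00211). CDC34, the E2 of SCF ligases, was called at 1.23-fold (adjusted p = 0.0433), and the call was lost without sgNeg replicate 1 (0.26, adjusted p = 0.119) or replicate 2 (0.31, adjusted p = 0.0526) and without sgPRMT5-2 replicate 1 (0.35, adjusted p = 0.0588) or replicate 3 (0.25, adjusted p = 0.148, limma voom). It was also lost with library totals alone (0.22, adjusted p = 0.133), with no low-count filter (0.30, adjusted p = 0.112), and in 1 fit over all 15 libraries (0.31, adjusted p = 0.0921, limma voom). With sgWDR77-2, UBE2D1 was called at 0.663-fold (adjusted p = 0.02). That call was lost without sgNeg replicate 1 (-0.60, adjusted p = 0.052), replicate 2 (-0.61, adjusted p = 0.0514), or replicate 3 (-0.56, adjusted p = 0.0696) and without sgWDR77-2 replicate 2 (-0.49, adjusted p = 0.13, limma voom). With sgPRMT5-1 and sgWDR77-1, 0 of the 9 were called by limma voom, and 3 and 1 had an unadjusted p below 0.05.

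Of 10 SCF subunits and F-box paralogs, the partners of FBXW7 and FBXO30, 8 were tested, and 3 were called higher and 1 lower with sgPRMT5-2, beside 40.1% of all tested genes called, 20.9% higher and 19.3% lower. Their median log2 fold change was 0.05. CUL1, the SCF scaffold, rose 1.21-fold (adjusted p = 0.0057) and RBX1, its RING subunit, rose 1.18-fold (adjusted p = 0.0151, limma voom). In 1 fit over all 15 libraries neither was called (CUL1 0.28, adjusted p = 0.0552, and RBX1 0.25, adjusted p = 0.143), and with library totals alone RBX1 was not (0.16, adjusted p = 0.0823, limma voom). FBXW11 was called at 1.16-fold (adjusted p = 0.0241) and lost the call without sgNeg replicate 3 (0.18, adjusted p = 0.0547) or sgPRMT5-2 replicate 2 (0.22, adjusted p = 0.0557) and with library totals alone (0.13, adjusted p = 0.14, limma voom). BTRC, its paralog, was called at 0.766-fold (adjusted p = 0.0142) and lost the call without sgNeg replicate 1 (-0.32, adjusted p = 0.0565) and without sgPRMT5-2 replicate 1 (-0.36, adjusted p = 0.0577) or replicate 2 (-0.29, adjusted p = 0.0975, limma voom). None was called with the other 3 guides by limma voom, and 0, 0, and 3 had an unadjusted p below 0.05 with sgPRMT5-1, sgWDR77-1, and sgWDR77-2. NEDD8, whose product activates cullins, was listed at 0 counts in all 15 libraries, as was the readthrough gene NEDD8-MDP1. Whether reads shared by these genes were left uncounted was not tested, so a count of 0 here does not show that the RNA was absent.

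Of 11 chaperone partners of STUB1, 10 were tested and 5 were called higher with sgPRMT5-2, beside 40.1% of all tested genes called, 20.9% higher and 19.3% lower. Their median log2 fold change was 0.20. The chaperone HSPA8 rose 1.23-fold (adjusted p = 0.000324), HSP90AB1 rose 1.21-fold (adjusted p = 0.000542), and the cochaperones BAG2 and HSPBP1 rose 1.3-fold and 1.34-fold (adjusted p = 0.00104 and 0.00873, limma voom). The HSPBP1 call was lost in 1 fit over all 15 libraries (0.42, adjusted p = 0.111, limma voom). With sgWDR77-2, BAG2 was called at 1.3-fold (adjusted p = 0.0347). That call was lost without sgNeg replicate 1 (0.34, adjusted p = 0.13) or replicate 2 (0.36, adjusted p = 0.0953) and without sgWDR77-2 replicate 1 (0.35, adjusted p = 0.0528), replicate 2 (0.43, adjusted p = 0.0848), or replicate 3 (0.41, adjusted p = 0.0596, limma voom). With sgPRMT5-1 and sgWDR77-1, 0 were called by limma voom, and 2 and 2 had an unadjusted p below 0.05.

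Among 13 other regulators of p63 protein, 4 were called higher and 2 lower with sgPRMT5-2, beside 40.1% of all tested genes called, 20.9% higher and 19.3% lower. Their median log2 fold change was 0.15. TRIM8 rose 1.39-fold (adjusted p = 0.000134) and CDKN2A, which encodes an inhibitor of CDK4 and one of MDM2, rose 1.61-fold (adjusted p = 0.000349, limma voom). USP28, a deubiquitinase, fell to 0.751-fold (adjusted p = 0.00228) and NQO1 fell to 0.847-fold (adjusted p = 0.00437, limma voom). With sgPRMT5-1, sgWDR77-1, and sgWDR77-2, 0 were called by limma voom, and 3, 4, and 2 had an unadjusted p below 0.05. TP73, a homolog of TP63, had 1 to 17 counts per library, with 5, 16, and 17 in sgNeg and 1, 2, and 2 with sgPRMT5-2. It was called lower with sgPRMT5-2 (log2 fold change -2.54, standard error 0.711, adjusted p = 0.00749), and the call was lost without sgPRMT5-2 replicate 1 (-2.20, adjusted p = 0.0513, limma voom).

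Some genes known as p63 targets in basal cells were called with each guide, while TP63 itself was not called against sgNeg. Of 14 genes that p63 activates, 1 was called higher and 4 lower with sgPRMT5-1, 4 and 6 with sgPRMT5-2 (13 tested), 0 and 3 with sgWDR77-1 (13 tested), and 1 and 4 with sgWDR77-2. Over all tested genes 3.76%, 40.1%, 2.71%, and 4.97% were called in that order. The list medians were -0.06, -0.03, 0.02, and -0.22 in that order. KRT5, the basal keratin, was at 512, 638, and 817 CPM in sgNeg, at 335, 250, and 227 with sgPRMT5-1, and at 61.3, 52.2, and 54.1 with sgPRMT5-2. It was at 43.4, 42.8, and 33.8 CPM with sgWDR77-1 and at 101, 91, and 81.9 with sgWDR77-2. All 12 knockout libraries were below all sgNeg libraries for KRT5. It fell to 0.411-fold, 0.0865-fold, 0.0631-fold, and 0.141-fold in the order of the guides above (adjusted p = 4.33e-05, 4.69e-13, 1.82e-07, and 1.78e-08, limma voom). KRT15, another basal keratin, fell to 0.119-fold, 0.0495-fold, 0.403-fold, and 0.357-fold (adjusted p = 2.1e-07, 1.75e-09, 0.00669, and 0.000473), and its sgWDR77-1 call was lost without sgNeg replicate 3 (log2 fold change -1.20, adjusted p = 0.0711, limma voom). BNC1, a basonuclin of basal keratinocytes on the same list, rose 1.85-fold with sgPRMT5-2 (adjusted p = 7.97e-08, limma voom). With sgPRMT5-1 it was called at 1.39-fold (adjusted p = 0.0132). That call was lost without sgNeg replicate 1 (0.40, adjusted p = 0.0795) or sgPRMT5-1 replicate 2 (0.47, adjusted p = 0.067, limma voom). BNC1 was not called with sgWDR77-1 (1.14-fold, adjusted p = 0.471) or sgWDR77-2 (1.3-fold, adjusted p = 0.0548, limma voom).

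Both cell cycle genes listed as repressed by p63 were called higher with each PRMT5 guide, 1 with sgWDR77-2, and 0 with sgWDR77-1, where 0 had an unadjusted p below 0.05. Over all tested genes 3.76% were called with sgPRMT5-1, 40.1% with sgPRMT5-2 (20.9% higher), 4.97% with sgWDR77-2, and 2.71% with sgWDR77-1. CDKN1A, the inhibitor p21, was 3.03-fold higher with sgPRMT5-2 (adjusted p = 2.72e-10), and 2.06-fold higher with sgPRMT5-2 than with sgPRMT5-1 (adjusted p = 9.31e-07, limma voom). It was not called with either WDR77 guide, at 0.884-fold with sgWDR77-1 and 1.16-fold with sgWDR77-2 (adjusted p = 0.709 and 0.336, limma voom). SFN was 1.36-fold higher with sgPRMT5-2 (adjusted p = 5.31e-05, limma voom). The smaller calls were lost in several settings. With sgPRMT5-1, CDKN1A (1.47-fold, adjusted p = 0.0324) was lost without sgNeg replicate 1 (0.53, adjusted p = 0.115) or replicate 2 (0.47, adjusted p = 0.115) and without sgPRMT5-1 replicate 2 (0.54, adjusted p = 0.112) or replicate 3 (0.41, adjusted p = 0.106), and in 1 fit over all 15 libraries (0.58, adjusted p = 0.0889, limma voom). SFN with sgPRMT5-1 (1.29-fold, adjusted p = 0.0205) was lost without sgNeg replicate 2 (0.29, adjusted p = 0.0884) and without sgPRMT5-1 replicate 2 (0.36, adjusted p = 0.107) or replicate 3 (0.31, adjusted p = 0.0638, limma voom). SFN with sgWDR77-2 (1.26-fold, adjusted p = 0.0404) was lost without sgNeg replicate 1 (0.37, adjusted p = 0.0601), replicate 2 (0.25, adjusted p = 0.139), or replicate 3 (0.38, adjusted p = 0.0592) and without sgWDR77-2 replicate 1 (0.28, adjusted p = 0.0641) or replicate 2 (0.37, adjusted p = 0.0948, limma voom), and also by limma-trend (0.33, adjusted p = 0.0525).

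Of 7 other substrates of FBXW7, 2 were called higher and 2 lower with sgPRMT5-2, beside 40.1% of all tested genes called, 20.9% higher and 19.3% lower. Their median log2 fold change was -0.02. KLF5, a transcription factor of epithelial cells, fell to 0.602-fold with sgPRMT5-2 (adjusted p = 3.68e-06) and to 0.617-fold with sgWDR77-2 (adjusted p = 0.00125, limma voom). With sgPRMT5-1 it was called at 0.756-fold (adjusted p = 0.0461), and the call was lost without sgNeg replicate 1 (-0.41, adjusted p = 0.115), replicate 2 (-0.45, adjusted p = 0.0576), or replicate 3 (-0.39, adjusted p = 0.106) and without sgPRMT5-1 replicate 1 (-0.43, adjusted p = 0.0832), replicate 2 (-0.46, adjusted p = 0.0819), or replicate 3 (-0.32, adjusted p = 0.139), and in 1 fit over all 15 libraries (-0.39, adjusted p = 0.149, limma voom). NOTCH1 fell to 0.706-fold with sgPRMT5-2 (adjusted p = 3.7e-05, limma voom). The higher pair was CCNE1 (1.38-fold, adjusted p = 0.0206), lost without sgNeg replicate 2 (0.33, adjusted p = 0.0952) or sgPRMT5-2 replicate 1 (0.43, adjusted p = 0.0636), and JUN (1.12-fold, adjusted p = 0.039), lost without sgNeg replicate 3 (0.15, adjusted p = 0.0638) and sgPRMT5-2 replicate 1 (0.17, adjusted p = 0.0723) or replicate 3 (0.17, adjusted p = 0.0763, limma voom). That JUN call was also lost with library totals alone (0.08, adjusted p = 0.251) and in 1 fit over all 15 libraries (0.17, adjusted p = 0.24) by limma voom, and by limma-trend (0.16, adjusted p = 0.059). With sgWDR77-2, JUN was called at 1.37-fold (adjusted p = 0.011) and lost the call without sgWDR77-2 replicate 2 (0.41, adjusted p = 0.0638, limma voom). MYC was not called with any guide. With sgWDR77-1, 0 of the 7 were called by limma voom, and 2 had an unadjusted p below 0.05.

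The genes whose log2 CPM followed 3 members most closely over the 15 libraries were taken from 9221 genes with a mean count of at least 50. For TP63 these were MIER1, PRRC1, and AEBP2 (Pearson r of 0.944, 0.938, and 0.931), for ITCH they were LIMA1, MEF2D, and CLMP (0.948, 0.935, and 0.932), and for FBXO30 they were GNPNAT1, MPP5, and PALLD (0.932, 0.924, and 0.91). The 15 points share 5 groups and their library scaling, so these values describe a likeness of pattern and were not tested.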

How the data were processed

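RNA from 15 libraries of HSC-5 cells (5 groups of 3) was sequenced after a TruSeq stranded mRNA preparation by the labels, while the study's methods name a TruSeq RNA kit of another version, so the strand of the libraries is uncertain. The authors aligned reads to hg38 with STAR, counted them with HTSeq, and tested with DESeq2. The deposited values are whole counts of reads per gene. The first choice set in advance was the edgeR quasi-likelihood test, with limma voom if an automatic check could not read the unit from the headerless tables. It could not, so limma voom was used and edgeR and DESeq2 were not run. The strand setting and annotation release are not given in the sources used here, so coordinates and lengths came from GENCODE release 44 (60463 of 60649 gene IDs matched). Each library had 5146711 to 6730428 reads on genes, with 2.75% to 7.16% of alignments outside genes.

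Each comparison was fitted on its own libraries with limma voom (limma 3.58.1, R 4.3.3), with TMM factors (trims 0.3 and 0.05), genes with a mean normalized count of at least 3, and Benjamini-Hochberg adjustment over all genes tested at 0.05. The procedure was tested on simulated data, and no outcome of that is given here. Named genes were the 8 members, PRMT5 and WDR77, up to 4 called genes with the smallest adjusted p per list, and for TP63, ITCH, and FBXO30 the 3 genes most alike in log2 CPM (prior count 2, mean count of at least 50). The members and lists were chosen with earlier results of these data known. Alternatives were RLE, upper quartile, and library-total scaling, no filter or a minimum of 10, a replicate block, 1 fit over all 15 libraries, limma-trend, and leaving out each library.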

Additional observations from a re-analysis of the deposited data

Results flagged for a closer look

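TP63 was at 528 CPM in sgWDR77-1 replicate 1, far from the other 5 WDR77KO libraries. FBXO30 was at 75 CPM in sgPRMT5-1 replicate 2, far from the other 5 PRMT5KO libraries. In all, 20 groups of 6 libraries were tested for a library far from the others, and the limit used is one that chance passes in about 1 in 20 groups of like libraries. These groups pooled 2 guides.

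The 2 guides to PRMT5 differed by a direct test with limma voom in TP63 (log2 fold change -0.23 for sgPRMT5-2 against sgPRMT5-1, adjusted p = 0.0495), ITCH (0.24, adjusted p = 0.0144), and NEDD4L (0.83, adjusted p = 2.2e-06). The TP63 call passed in 7 of 14 alternative settings and the ITCH call in 10 of 14. NEDD4L was called between PRMT5KO and WDR77KO with the 6 libraries of each as replicates (0.59, adjusted p = 0.0279, limma voom). With counts summed per guide, 2 against 2, it was not (0.59, adjusted p = 0.331), and the call was also lost in 7 of 12 fits with 1 library left out, among them each fit without a library of sgPRMT5-2.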

How the results depend on the processing

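Against sgNeg with sgPRMT5-2, NEDD4L (1.02 to 1.14) and ITCH (0.34 to 0.46) kept their direction and call in all 14 alternatives, as did FBXO30 with sgWDR77-2 (0.48 to 0.57) and NEDD4L between the PRMT5 guides (0.76 to 0.88). Where values changed as below, the cause was not tested. DESeq2 and edgeR were not run.

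With sgPRMT5-1 against sgNeg, 987 genes were called with no low-count filter in place of 530. With the replicate number as a block, 1427 genes and 1 member (FBXO30, 0.34, adjusted p = 0.024) were called there, and 369 genes in place of 698 with sgWDR77-2. With the block, JUN was not called with sgPRMT5-2 (0.16, adjusted p = 0.057), nor BAG2 (0.38, adjusted p = 0.105) or SFN (0.33, adjusted p = 0.0997) with sgWDR77-2. Over the series the numbers did not pair the libraries: residuals of libraries with the same number correlated at -0.503 to 0.415 over 30 pairs, and 9 of 30 correlated best with their own number. Between sgNeg and sgPRMT5-1 the values were 0.0778, 0.151, and 0.415 for replicates 1 to 3. Of these, replicates 1 and 3 correlated best with their own number. In 1 fit over all 15 libraries, 1333 genes and 1 member were called with sgWDR77-1, 1059 genes and 1 member between the PRMT5 guides, 339 genes between the WDR77 guides, and 3813 genes and 2 members between PRMT5KO and WDR77KO. With counts summed per guide, chosen after seeing the data, 31 genes and 0 members were called between PRMT5KO and WDR77KO in place of 1962 and 1. Between the WDR77 guides, 11 genes were called with library totals alone and 127 with no filter. With library totals alone, the share of called genes that were higher was 27.8% in place of 40.4% with sgPRMT5-1, 39.5% in place of 52% with sgPRMT5-2, and 37.7% in place of 57.1% between PRMT5KO and WDR77KO. That scaling moved the median log2 fold change of all tested genes by -0.049, -0.084, and -0.063 in the same order. Calls gained or lost under it include this common shift. With the block it was 54% in place of 40.4% with sgPRMT5-1.

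Leaving out 1 library at a time gave 211 to 510 genes called with sgPRMT5-1, 56 to 1003 with sgWDR77-1, 293 to 661 with sgWDR77-2, 1429 to 4711 between the PRMT5 guides, 0 to 156 between the WDR77 guides, and 876 to 3178 between PRMT5KO and WDR77KO. Members called were 0 to 1 with sgWDR77-1, 1 to 4 between the PRMT5 guides, and 0 to 2 between PRMT5KO and WDR77KO.

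Some estimates near 0 changed sign, and none of these was called. NEDD4 was at -0.02 with sgPRMT5-1 under library totals alone, and with sgWDR77-1 at -0.01 with RLE factors, -0.02 with library totals alone, and -0.02 in 1 fit over all 15 libraries. STUB1 was at -0.02 with sgWDR77-2 under library totals alone. The median of all tested genes moved by -0.049 with sgPRMT5-1, -0.025 with sgWDR77-1, and -0.026 with sgWDR77-2 under library totals alone, so these sign changes include a common shift. With 1 library left out, the log2 fold changes that changed sign ranged, with sgPRMT5-1, from -0.06 to 0.17 for STUB1. With sgWDR77-1 they ranged from -0.11 to 0.06 for NEDD4, -0.01 to 0.25 for NEDD4L, -0.13 to 0.02 for FBXW7, and -0.18 to 0.01 for STUB1. With sgWDR77-2 they ranged from -0.05 to 0.03 for FBXW7 and -0.23 to 0.18 for STUB1. Between the PRMT5 guides they ranged from -0.04 to 0.09 for FBXW7 and -0.16 to 0.02 for FBXO30. Between the WDR77 guides they ranged from -0.07 to 0.00 for ITCH, -0.07 to 0.14 for NEDD4L, -0.01 to 0.10 for FBXW7, -0.12 to 0.11 for FBXO30, and -0.16 to 0.26 for STUB1.

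With 3 libraries per group, a change that missed the threshold is not shown to be absent. STUB1, with 74 to 124 counts per library, had the widest intervals of the 8 genes against sgNeg, and levels of genes that share exons depend on how reads were assigned.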
